A study of Heterocephalus glaber with 215 samples.

Results

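The inhibin, activin and AMH family was followed through the tissues of breeding and non-breeding naked mole-rats. It was defined by gene name as INHA, INHBA, INHBB, FST, ACVR2A, ACVR2B, AMH and AMHR2, and 6 of these 8 genes are among the 16339 genes of the count table. INHBB and ACVR2B are not analysed here. RNA-seq was done on 215 libraries from 24 Heterocephalus glaber in 4 groups of 6 animals, namely female breeders (BF), female non-breeders (NF), male breeders (BM) and male non-breeders (NM). The tissues were ovary or testis, pituitary, hypothalamus, cerebellum, thyroid, adrenal, kidney, heart and skin. Female breeders were 3.3 to 3.7 years old, female non-breeders 2.4 to 4 years, male breeders 2.8 to 4.1 years and male non-breeders 2.7 to 4.1 years. Breeders had been taken out of the natal colony and paired with an unrelated mate, whereas their siblings among the non-breeders had never left, so effects of breeding and of leaving the colony cannot be told apart. By the study's account, male breeders were sampled soon after a birth and female breeders weeks after their last pregnancy, with the mate gone, so sex among breeders cannot be told apart from the time of sampling. No group had a genetic change or an experimental drug, and by the study's account all animals were under isoflurane anesthesia when killed.

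These genes encode a small signalling system of the TGF-beta superfamily that joins gonad and pituitary. INHA encodes the alpha subunit of inhibin, which pairs with a beta subunit (INHBA or INHBB), whereas activins are dimers of beta subunits alone. Activin raises and inhibin lowers the output of follicle-stimulating hormone (FSH) by pituitary gonadotropes, and follistatin (FST) binds activin and neutralises it. ACVR2A and ACVR2B are type II receptors of activin, and inhibin occupies them together with the co-receptor betaglycan. AMH, anti-Muellerian hormone, is made by Sertoli cells of the testis and by granulosa cells of small growing follicles, and acts through its own type II receptor, AMHR2. In mammals studied so far, INHA, INHBA and the aromatase gene CYP19A1 increase in granulosa cells as follicles grow under FSH, whereas AMH is highest in small follicles and declines in large ones.

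Levels are given in CPM, reads of a gene relative to the scaled total of its library, as mean ± SD over libraries, with n = 6 unless stated. Gene lengths were not used, so levels are compared between libraries of a gene and not between genes. Library totals ran from 9553515 to 20099804 counts. The ovary library of BF_1816 and 1 BM cerebellum library were left out of all tests, which leaves 5 breeder ovaries. Markers of anterior pituitary cells other than gonadotropes summed to at least 89680 CPM in every pituitary library and to at most 12.6 CPM in any gonad. Oocyte markers summed to 282.5 to 759 CPM in ovaries and to at most 9.62 CPM in pituitaries. The spermatogenic list did not separate testes (98.8 to 410.4 CPM) from ovaries (82.7 to 278.9 CPM). In pituitary, libraries NF_2969 and NF_3605 stood apart. Their median correlation across genes with the rest of the pituitaries was 0.906 and 0.901, against 0.965 to 0.983 for the remaining 22. In thyroid, KIF4A stood at 19.7 CPM in the library labelled NF_3605 and at 0.277 CPM in the one labelled NM_3295, against 0.142 to 3.08 CPM in the other 11 females and 19.1 to 30.0 CPM in the other 11 males, so both go against their labels.

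The comparison of ovaries asked whether the family differs between females that breed and females that do not. INHA and INHBA were higher in breeders, AMH had a negative fold change that passed by DESeq2 and not by edgeR, and FST, ACVR2A and AMHR2 did not pass. Of the 6 members, 2 were called (edgeR, adjusted p below 0.01), both higher, where 0.445% of 13717 genes tested were called. DESeq2 called 3 members, where it called 3.5% of genes. The same 2 members had ranges that did not overlap between the groups, a pattern seen with higher breeder levels in 1.71% of genes and with lower ones, which no member showed, in 1.14%. The count of genes called moved between 17 (without NF_2411) and 115 (without BF_6841) when 1 female was left out. In bulk tissue, fewer cells of a type and less RNA per cell cannot be told apart.

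INHA, the inhibin alpha subunit, had 1068, 988, 675, 1572 and 356 CPM in ovaries of breeders BF_1090, BF_4121, BF_4772, BF_6382 and BF_6841. In ovaries of the 6 non-breeders it had 31.8, 21.8, 24.9, 27.1, 19.4 and 31.3 CPM. The lowest breeder therefore stood more than an order of magnitude above the highest non-breeder, and the non-breeders differed little among themselves. Means were 932 ± 455 CPM in BF (n = 5) and 26.0 ± 4.98 CPM in NF, with a log2 fold change of 5.17 ± 0.34 (SE) and an adjusted p of 4.31e-05 by edgeR. INHA was called in all 11 fits that left out 1 female, with log2 fold changes of 4.91 to 5.38.

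INHBA, the beta A subunit shared by inhibin A and activin A, had 80.5, 30.3, 141.3, 99.2 and 15.6 CPM in the same breeders. Non-breeders had 9.85, 6.69, 7.80, 11.6, 9.28 and 5.72 CPM. The breeders spread widely, and BF_6841 lay close to the highest non-breeder, NF_3439. The log2 fold change was 3.12 ± 0.49, with means of 73.4 ± 51.3 CPM in BF (n = 5) and 8.50 ± 2.18 CPM in NF and an adjusted p of 0.00934 by edgeR. The call was lost in 10 of the 11 fits that left out 1 female, with adjusted p of up to 0.0357 (without BF_1090), and held without BF_6841 (edgeR, adjusted p = 0.0009365).

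The breeders did not all stand at the same level. BF_6841 was the lowest of the 5 for INHA and INHBA, and it was also the lowest for CYP19A1, the aromatase that makes estrogens in granulosa cells, and for FSHR, the FSH receptor. CYP19A1 had 119.5, 29.9, 79.2, 110 and 1.29 CPM in the 5 breeders. Among the non-breeders, CYP19A1 had 0 reads in 5 ovaries and 1 read in NF_3439 (edgeR, adjusted p = 0.00203; by limma-voom it did not pass, 0.0653). FSHR had 4.38, 3.18, 5.44, 6.70 and 2.87 CPM in breeders, against 1.77 to 4.33 CPM in non-breeders, with overlapping ranges and an adjusted p of 0.238 by edgeR. The ovary library of BF_1816, which entered no test, had 1252 CPM of INHA, 197.3 of INHBA and 253.4 of CYP19A1, each within or above the range of the other breeders.

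**Figure D1:**
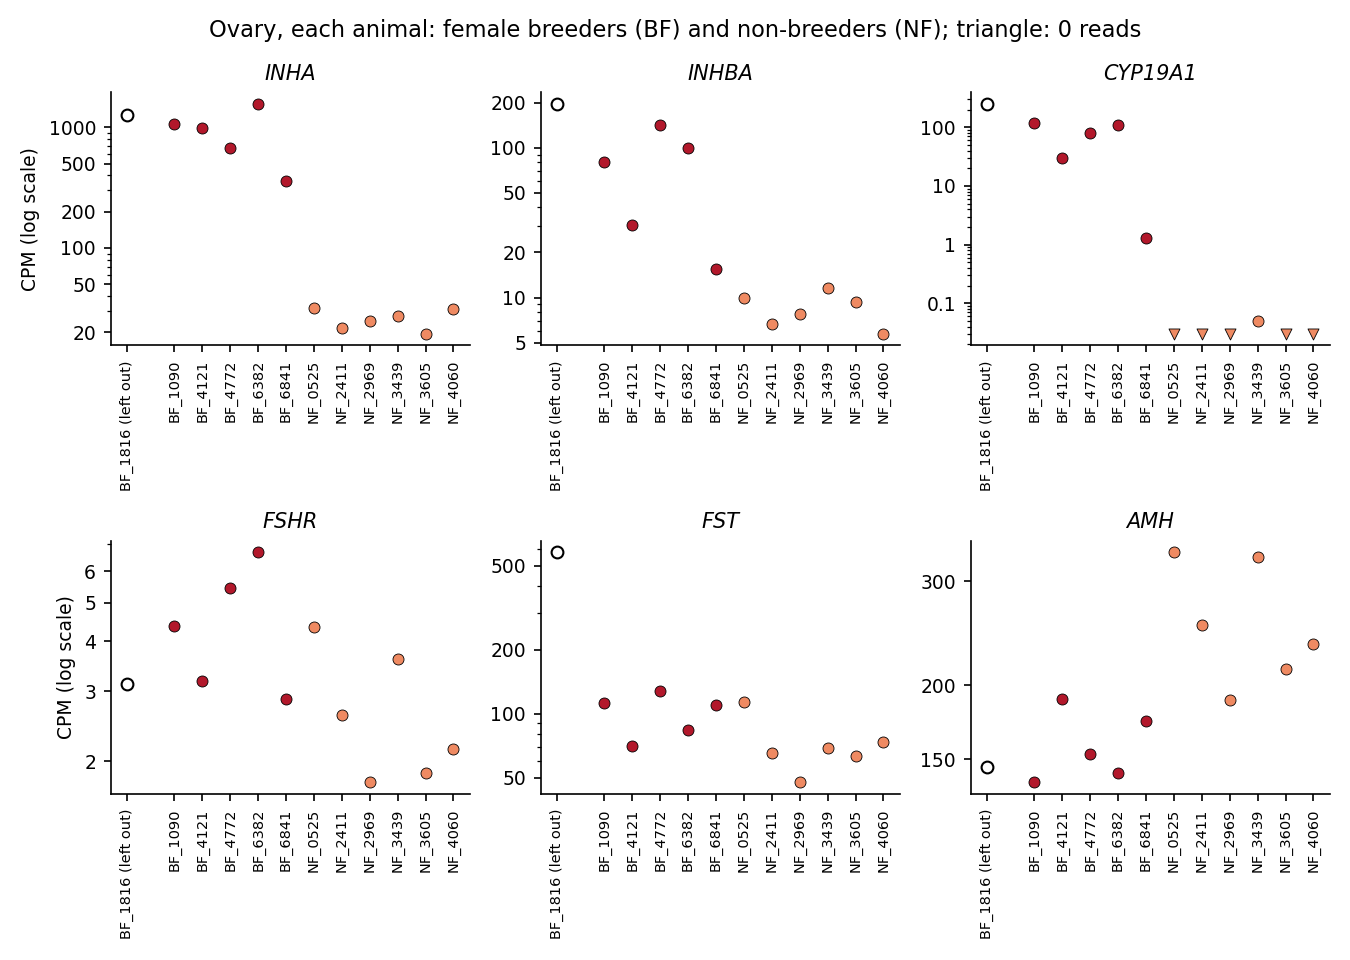
CPM on a log axis of INHA, INHBA, CYP19A1, FSHR, FST and AMH in each ovary, with breeders (BF) left of non-breeders (NF), the library left out of the tests as an open circle, and 0 reads as triangles. INHA lies at 356 to 1572 CPM in breeders and at 19.4 to 31.8 CPM in non-breeders, and BF_6841 is the lowest breeder of the tested ones for INHA, INHBA, CYP19A1 and FSHR.

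AMH had the opposite sign. It had 137, 189.8, 153.2, 141.9 and 173.7 CPM in the breeders, against 336.1, 252.6, 188.9, 330, 212.7 and 235.2 CPM in the non-breeders. The groups touched only where BF_4121 lay just above NF_2969. Means were 159 ± 22.2 CPM in BF (n = 5) and 259 ± 61.1 CPM in NF, a log2 fold change of -0.69 ± 0.15. The adjusted p was 0.0373 by edgeR, which misses the threshold, 0.0439 by limma-voom and 0.0011 by DESeq2, which passes it. Leaving out 1 female gave log2 fold changes of -0.76 to -0.61.

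FST, the activin-binding protein, had 112.8, 70.1, 128, 83.7 and 110.5 CPM in breeders and 113.5, 65.0, 47.4, 69.1, 63.0 and 73.3 CPM in non-breeders. The ranges overlapped, and the log2 fold change of 0.51 ± 0.21 did not pass (edgeR, adjusted p = 0.25). In BF_1816, FST stood at 579.6 CPM, above every other ovary. AMHR2, the AMH receptor, was at 32.6 ± 3.20 CPM in BF (n = 5) and 39.2 ± 7.57 CPM in NF, and ACVR2A at 37.4 ± 3.84 CPM and 38.7 ± 2.79 CPM in the same order of groups. Their log2 fold changes were -0.25 ± 0.12 and -0.04 ± 0.09 (edgeR, adjusted p = 0.338 and 0.874).

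Ratios between members of a library do not depend on the scaling of libraries, and 8 were compared by a two-sided exact permutation test, with p-values adjusted over the 8. None had an adjusted p below the 0.01 used for genes. With so few animals the exact p has a lower bound, which adjustment over the 8 ratios raises, so little follows from this. INHBA relative to INHA had a mean log2 difference of -2.27 between BF and NF ovaries (exact permutation p = 0.0087, adjusted 0.0346). FST relative to INHBA had a difference of -2.24 (exact permutation p = 0.0173, adjusted 0.039), and AMH relative to AMHR2 by -0.43 (exact permutation p = 0.0087, adjusted 0.0346). Each of the 3 differences kept its sign without any 1 female, with ranges of -2.68 to -1.99, -2.74 to -1.97 and -0.49 to -0.35. In testis the differences of the same ratios were 0.19, 0.91 and -0.38, and that of AMH relative to AMHR2 in male pituitary was -0.33 (exact permutation, adjusted p of 0.159 to 0.472).

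Cell type markers were read in the same ovaries. Of 10 granulosa cell markers, a list that holds INHA and AMH themselves, 3 were called higher in breeder ovaries, namely CYP19A1, INHA and SERPINE2, a protease inhibitor (log2 fold change 2.77 ± 0.22; edgeR, adjusted p = 0.000107). DESeq2 called 7 of the 10, and 9 had an unadjusted p below 0.05 by edgeR. Over all genes in ovary, 15.9% had an unadjusted p below 0.05 by edgeR, and DESeq2 called 3.5%. The median log2 fold change of the list was 0.80, against -0.02 over all genes, and AMH was its only member with a negative value. The list summed to 2787 to 5651 CPM in BF and 699.7 to 1291 CPM in NF. Oocyte markers summed to 334.1 to 545.2 CPM in BF and 282.5 to 759 CPM in NF, and theca and steroidogenic markers to 2307 to 14660 CPM and 6597 to 27600 CPM, with 0 of 9 and 0 of 5 genes called by edgeR (3 and 2 with an unadjusted p below 0.05, 1 and 0 called by DESeq2). OOEP was at 0 in every ovary. Smooth muscle markers had a median sum of 1887 CPM in BF and 569.7 CPM in NF (0 of 3 called by edgeR, 2 with an unadjusted p below 0.05, 2 called by DESeq2). Leukocyte markers summed to 11.2 to 16.8 CPM and 16.8 to 21.9 CPM, and markers of kidney tubule or thyroid follicle to 7.45 to 64.0 CPM and 5.25 to 11.9 CPM, in BF and NF in that order. Median log2 fold changes were -0.37 for oocyte (0 of 9 positive), -0.97 for theca and steroidogenic (2 of 5) and -0.45 for leukocyte markers (0 of 4). They were 1.77 for smooth muscle (3 of 3) and 1.64 for tubule or follicle markers (3 of 3). The part of the makeup of the ovary in the results on INHA, INHBA and AMH was not tested.

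In testis the family did not differ detectably between male breeders and male non-breeders. None of the 6 members was called by edgeR or by DESeq2, and 0 had an unadjusted p below 0.05. Over all genes edgeR called 0 of 14421 (0%), with 36.6% at an unadjusted p below 0.05, and DESeq2 called 378 (2.64%). No member had ranges that did not overlap, where 1.41% of genes did with higher and 0.957% with lower breeder levels. INHA had 662.8, 443.4, 542.2, 346.6, 601.7 and 511.4 CPM in testes of breeders BM_1147, BM_1215, BM_1400, BM_3274, BM_5982 and BM_6656. Non-breeders NM_0713, NM_1449, NM_3295, NM_4925, NM_6074 and NM_6206 had 849.9, 464.8, 415.1, 424.2, 589.2 and 564.1 CPM. The ranges overlapped nearly in full, and the log2 fold change was -0.07 ± 0.19 (edgeR, adjusted p = 0.799).

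AMH, a product of Sertoli cells, had 287.7, 177.6, 244.7, 91.9, 328 and 183.3 CPM in the BM testes and 483.5, 260, 200.4, 238.6, 187.3 and 321.9 CPM in the NM testes. Its log2 fold change of -0.35 ± 0.29 did not pass (edgeR, adjusted p = 0.386). BM_3274 was the lowest of the 12 testes for INHA, AMH, AMHR2 and FSHR, and NM_0713 the highest for INHA and AMH. INHBA averaged 2.21 ± 0.717 CPM in BM and 2.10 ± 0.776 CPM in NM, AMHR2 31.7 ± 8.97 and 31.6 ± 5.12 CPM, and ACVR2A 30.3 ± 3.57 and 29.0 ± 4.34 CPM in the same order. The 3 log2 fold changes lay between 0.03 and 0.10, with adjusted p of 0.636 to 0.911 by edgeR.

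FST stood at 2.73, 3.13, 2.58, 5.10, 2.44 and 2.50 CPM in BM testes, against 1.09, 0.845, 4.98, 1.90, 1.19 and 0.872 CPM in NM testes. All 6 breeders lay above 5 of the 6 non-breeders, and NM_3295 alone lay among them. The log2 fold change was 0.78 ± 0.43 (edgeR, adjusted p = 0.197), and 1.39 without NM_3295 (adjusted p = 0.0508). FSHR, the receptor through which FSH acts on Sertoli cells, had a log2 fold change of -0.36 ± 0.29 (adjusted p = 0.376). Sertoli markers summed to 490.1 to 1249 CPM in BM and 876.1 to 1662 CPM in NM, and spermatogenic markers to 98.8 to 318.9 CPM and 278.7 to 410.4 CPM. By edgeR, 0 of 7 and 0 of 8 of these genes were called (1 and 6 with an unadjusted p below 0.05), and DESeq2 called 0 and 1. Steroidogenic markers summed to 27010 to 65970 CPM in BM and 13470 to 28480 CPM in NM (0 of 5 called by edgeR, 5 with an unadjusted p below 0.05, 4 called by DESeq2). Median log2 fold changes were -0.27 for Sertoli markers, a list that holds AMH and FSHR (0 of 7 positive), and -0.68 for spermatogenic markers (1 of 8). The median was 1.01 for steroidogenic markers (5 of 5), against 0.02 over all genes. Among other lists, medians were 0.79 for endothelium (4 of 4 positive), 0.98 for luteal (3 of 3) and 0.96 for pituitary stellate and pituicyte markers (2 of 2). For oocyte markers the median was -0.68 (0 of 6). In that order 4, 3, 2 and 4 genes had an unadjusted p below 0.05 by edgeR, as did 36.6% of all genes. DESeq2 called 0, 1, 2 and 0, and edgeR called 0 in each. The part of these cells in the testis values was not tested.

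**Figure D2:**
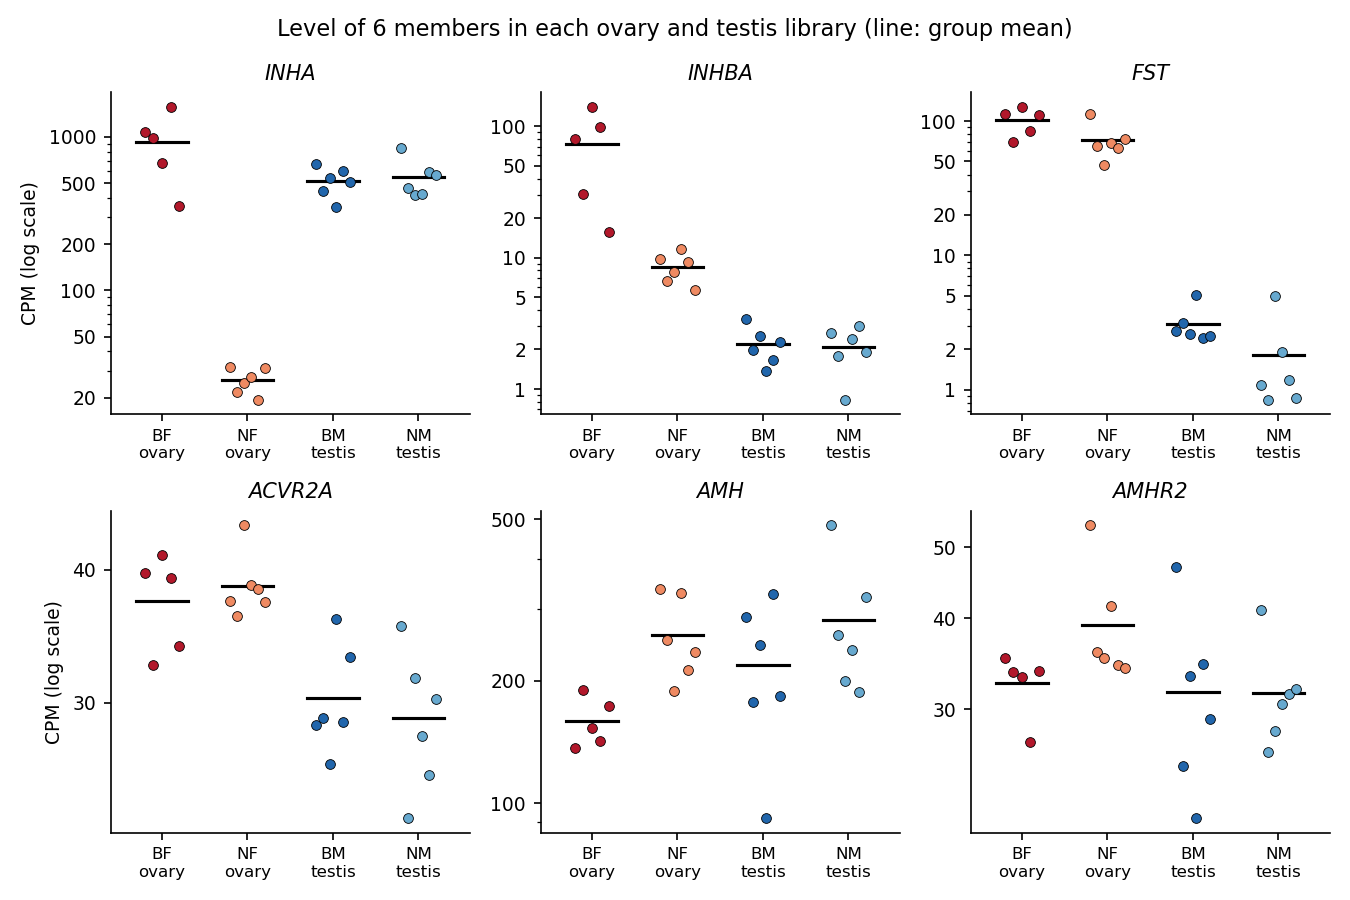
CPM on a log axis of the 6 members in each gonad library, with breeders left of non-breeders in ovary (BF, NF) and testis (BM, NM), and horizontal lines at group means. INHA in non-breeder ovaries (mean 26.0 CPM) lies below the other 3 groups (means 932, 518 and 551 CPM), and INHBA and FST lie lower in testis than in ovary.

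The difference of the status effects between ovary and testis was tested directly in a fit of the 4 gonad groups. It was called for INHA (5.27 ± 0.38 on the log2 scale; edgeR, adjusted p = 2.87e-08) and INHBA (3.06 ± 0.57, adjusted p = 0.00613), 2 of 6 members where 0.617% of 14911 genes were called. It was not called for AMH (-0.31 ± 0.36, adjusted p = 0.627), AMHR2 (-0.25 ± 0.22), FST (-0.23 ± 0.47) or ACVR2A (-0.08 ± 0.15). This test was not repeated without single animals, and in ovary alone the call of INHBA was lost in 10 of 11 such fits.

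Gonads were also compared between the sexes within a status, for which 43.3% of genes were called among breeders and 55.8% among non-breeders, so a call says little of a single gene. Called members numbered 2 of 6 among breeders and 4 of 6 among non-breeders. INHA had a log2 fold change of 0.83 ± 0.30 for BF ovary over BM testis, which did not pass (edgeR, adjusted p = 0.0318). Among non-breeders it was lower in NF ovary than in NM testis, at -4.40 ± 0.21 (adjusted p = 1.51e-09). INHBA was higher in ovary than in testis in both statuses, by 5.04 ± 0.53 in breeders and 2.02 ± 0.28 in non-breeders. FST was higher in ovary by 5.04 ± 0.23 in breeders and 5.31 ± 0.43 in non-breeders, with adjusted p of at most 2.24e-05 for these 4 values. AMH and AMHR2 were not called in either comparison, with AMH at -0.47 ± 0.26 (adjusted p = 0.137) in breeders and -0.12 ± 0.23 (adjusted p = 0.648) in non-breeders. ACVR2A had a log2 fold change of 0.29 in breeders that did not pass (adjusted p = 0.0325) and was 0.41 ± 0.11 higher in NF ovary (adjusted p = 0.00438).

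**Figure D3:**
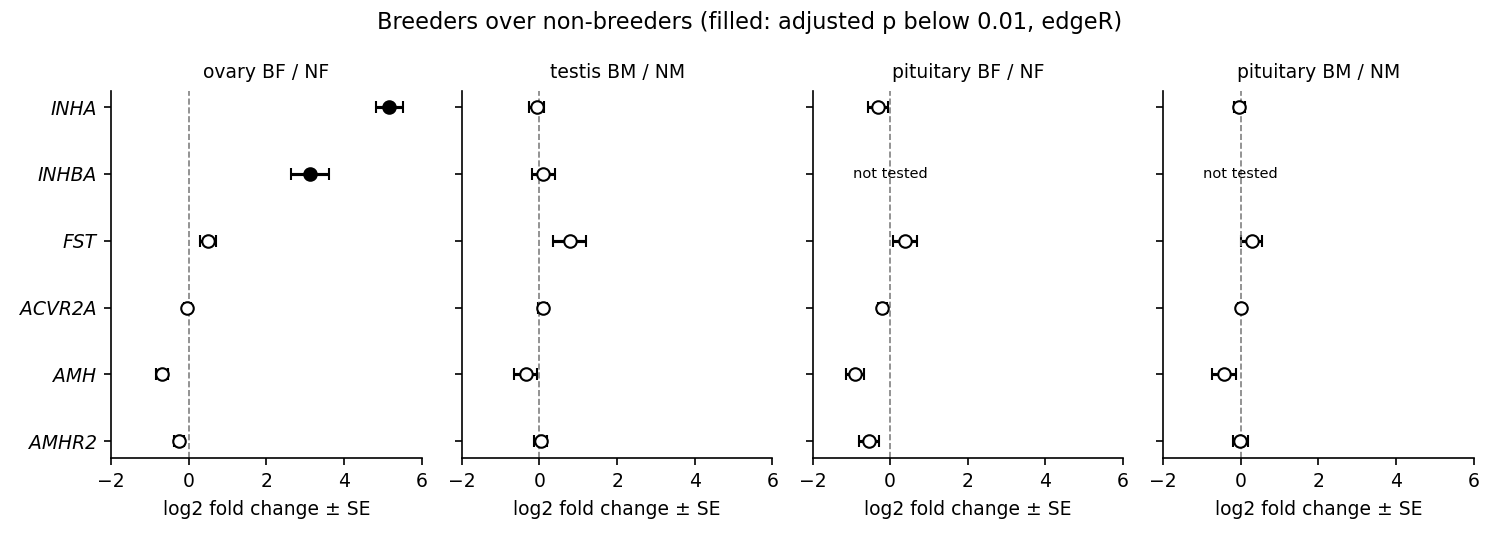
Log2 fold change of breeders over non-breeders with its SE for the 6 members in ovary, testis and pituitary of each sex, with filled points for edgeR adjusted p below 0.01. INHA (5.17) and INHBA (3.12) in ovary are the only filled points, and INHBA was too low in pituitary to be tested.

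The pituitary is where inhibin, activin and follistatin act on FSH, and of the 5 members tested there AMH had the largest fold change in females. It had 5.76, 6.17, 8.10, 4.80, 6.81 and 12.2 CPM in breeders BF_1090, BF_1816, BF_4121, BF_4772, BF_6382 and BF_6841, against 11.8, 16.1, 15.7, 9.49, 15.1 and 13.4 CPM in the non-breeders. Of the breeders, 5 lay below every non-breeder, and BF_6841, the breeder with the least INHA in the ovary, was the exception. Means were 7.31 ± 2.65 CPM in BF and 13.6 ± 2.57 CPM in NF, a log2 fold change of -0.90 ± 0.22. AMH did not pass (unadjusted p = 0.00151, adjusted p = 0.244 by edgeR and 0.0141 by DESeq2).

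AMHR2 in female pituitaries averaged 2.69 ± 1.10 CPM in BF and 3.88 ± 0.946 CPM in NF (log2 fold change -0.54 ± 0.26; edgeR, adjusted p = 0.459). AMH relative to AMHR2 had a mean log2 difference of -0.37 in breeders (exact permutation p = 0.0195, adjusted 0.039). INHA stood at 15.2 ± 1.61 CPM in BF and 18.8 ± 8.71 CPM in NF. Its log2 fold change of -0.31 ± 0.25 (edgeR, adjusted p = 0.587) turned to 0.19 without NF_2969 and NF_3605, which had 32.5 and 26.9 CPM and are the libraries that stood apart. FST was at 2.06 ± 0.410 and 1.55 ± 0.813 CPM, and ACVR2A at 39.6 ± 3.91 and 45.4 ± 7.37 CPM, in BF and NF in that order, and neither passed (edgeR, adjusted p = 0.583 and 0.488). INHBA had 35 reads in all over the 6 BF pituitaries and 12 over the 6 NF pituitaries and fell under the filter on low counts.

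In male pituitaries all 5 members tested lay between log2 fold changes of -0.43 (AMH, ± 0.32) and 0.28 (FST, ± 0.26), with adjusted p of at least 0.596 by edgeR. AMH averaged 10.5 ± 3.80 CPM in BM and 14.0 ± 7.38 CPM in NM, where NM_3295 alone had 27.6 CPM. Without NM_3295 the log2 fold change of AMH was -0.11, and that of FST 0.25. INHA averaged 14.0 ± 2.78 and 14.5 ± 2.36 CPM, and AMHR2 4.70 ± 1.26 and 4.73 ± 0.784 CPM in the same order. No member was called in pituitary of either sex by edgeR or by DESeq2, and 1 of 10 tests had an unadjusted p below 0.05, that of AMH in females. Over all genes edgeR called 0% in both sexes (11.1% and 11.6% at an unadjusted p below 0.05 in females and males), and DESeq2 called 73 genes in females and 17 in males. The status effect did not differ detectably between the sexes for any of the 5 members (edgeR, adjusted p of 0.998 or more, and 0 with an unadjusted p below 0.05).

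FSHB, the beta subunit of FSH and the endpoint of inhibin and activin action, had 41.7, 2.92, 76.6, 46.9, 84.1 and 89.3 CPM in BF pituitaries. NF pituitaries had 68.4, 64.8, 167.9, 83.4, 318 and 104.3 CPM, overlapping the breeders from 64.8 to 89.3 CPM. The log2 fold change of -1.25 ± 0.61 did not pass (edgeR, adjusted p = 0.456), and BF_1816 lay far below all other pituitaries. Without NF_2969 and NF_3605, which hold the highest NF values, it was -0.49 ± 0.62 (edgeR, adjusted p = 0.711), and without BF_1816 it was -0.998 ± 0.43 (adjusted p = 0.551). LHB and CGA, the other gonadotropin subunits, had log2 fold changes of 1.36 ± 0.57 and 0.26 ± 0.31 in females (edgeR, adjusted p = 0.425 and 0.698), and gonadotrope markers summed to 3022 to 6442 CPM in BF and 2288 to 6496 CPM in NF. Without NF_2969 and NF_3605 they were 2.49 ± 0.51 for LHB and 0.05 ± 0.34 for CGA (edgeR, adjusted p = 0.106 and 0.958), and without BF_1816, the highest in LHB, 0.97 ± 0.54 and 0.17 ± 0.33. In males FSHB had 235.4 to 440.2 CPM in BM and 133.7 to 439.8 CPM in NM (log2 fold change 0.16 ± 0.28). Between the sexes, every BF pituitary lay below every BM pituitary in FSHB. That log2 fold change of -2.48 ± 0.55 passed by DESeq2 (adjusted p = 0.00231) and not by edgeR (0.12). Among non-breeders the value for NF over NM had the same sign, -1.04 ± 0.44, with means of 134.5 and 286 CPM. It did not pass (adjusted p = 0.929 by edgeR and 0.972 by DESeq2). The share of genes with ranges that did not overlap between the sexes was not taken.

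**Figure D4:**
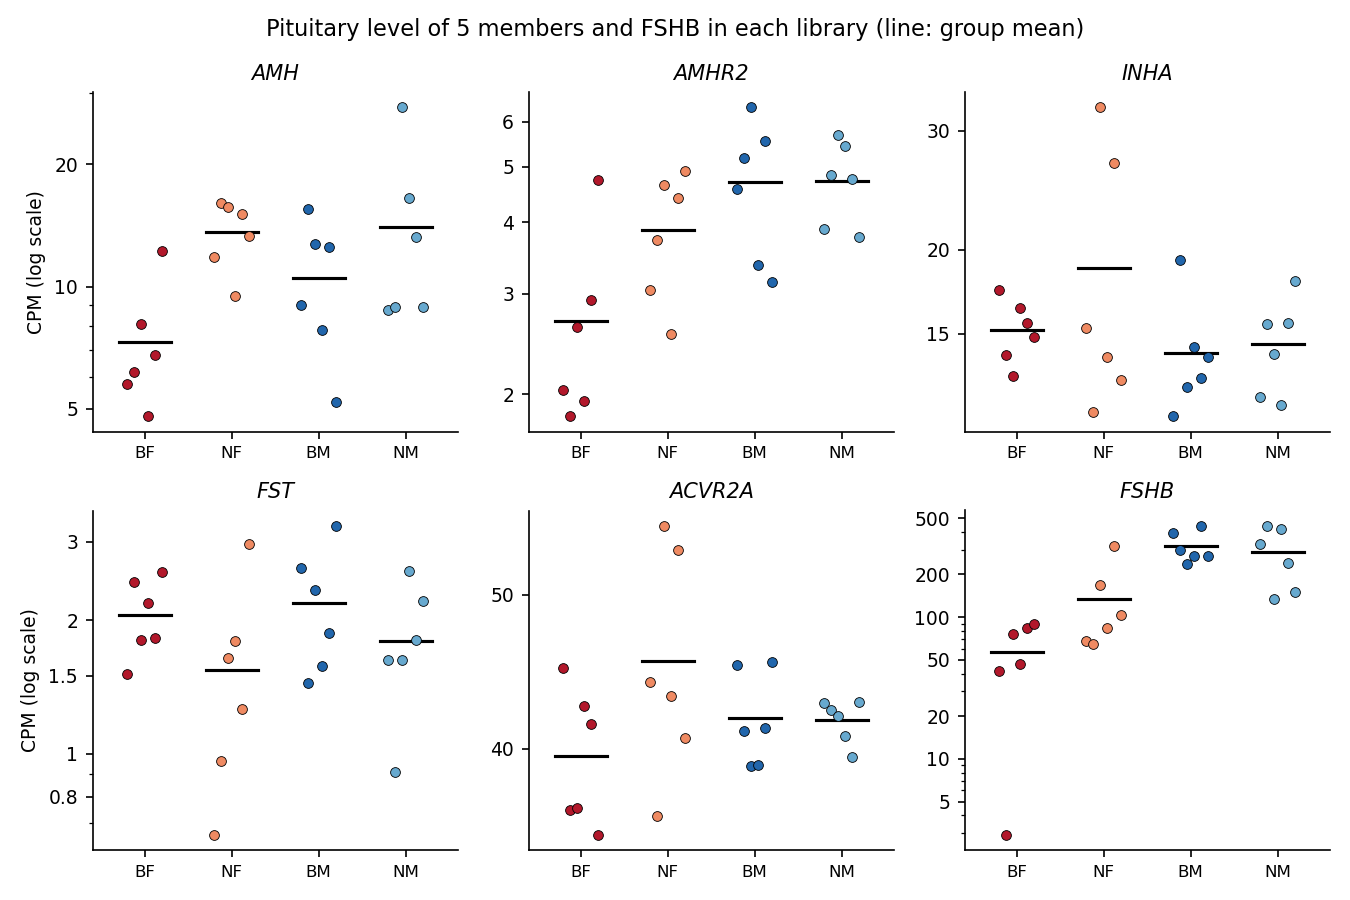
CPM on a log axis of AMH, AMHR2, INHA, FST, ACVR2A and FSHB in each of the 24 pituitary libraries, with breeders left of non-breeders in each sex and lines at group means. AMH lies at 4.80 to 12.2 CPM in BF and 9.49 to 16.1 CPM in NF, and INHA of NF_2969 and NF_3605 (32.5 and 26.9 CPM) lies above all others.

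Gonad INHA and pituitary FSHB were set side by side across animals, since inhibin is a brake on FSH. BF was left out here, as only 5 breeder ovaries were used and at least 6 animals were required. Within a group of 6 animals, Pearson's r on the log2 scale was -0.58 in NF, 0.58 in BM and 0.08 in NM (Spearman's rho -0.37, 0.54 and 0.14), with exact permutation p of 0.236, 0.217 and 0.922. For pituitary FST against FSHB it was -0.34 in BF, 0.22 in NF, -0.06 in BM and -0.25 in NM (rho 0.26, 0.43, -0.03 and -0.09; exact permutation p of 0.628 to 0.919). None of the 7 relations passed (adjusted p of at least 0.826), and 3 of them turned sign without the 2 animals farthest from the median of the first gene. These were gonad INHA in NF (r = 0.29) and NM (-0.84) and pituitary FST in BM (0.13). In NF, the animal with the least ovary INHA (NF_3605, 19.4 CPM) had the most FSHB (318 CPM), and its pituitary library stood apart.

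Over the 10 tissues, the members fell into different patterns. The following values are means over all libraries of a tissue, with n = 24 except for ovary (11), testis (12) and cerebellum (22). INHA was highest in testis (535 ± 135 CPM) and ovary (438 ± 554 CPM), followed by cerebellum (28.8 ± 3.35 CPM), hypothalamus (21.4 ± 2.83 CPM), pituitary (15.6 ± 4.86 CPM) and adrenal (14.6 ± 2.45 CPM), and it was lowest in skin (1.60 ± 0.773 CPM). Non-breeder ovaries, at 19.4 to 31.8 CPM, thus lay among the hypothalamus and cerebellum libraries in INHA (17.3 to 34.3 CPM). Neighbours in this order overlapped within 1 SD of their means, except cerebellum over hypothalamus and adrenal over heart, and ovaries of both statuses are pooled in it.

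AMH was concentrated in the gonads, with 250.4 ± 99.3 CPM in testis and 213.7 ± 69.3 CPM in ovary. Pituitary followed at 11.4 ± 5.06 CPM, with a range of 4.80 to 27.6 CPM that lay below that of either gonad. Adrenal had 2.67 ± 1.16 CPM, and thyroid, the lowest, had 0.0988 ± 0.0960 CPM, so AMH was tested in only 10 of 18 status comparisons. Its log2 fold change was negative in 9 of these 10, from -0.90 to 0.0026, and none was called by edgeR. The 10 comparisons share animals across tissues, so their signs are not independent, and no share of negative signs over all genes was taken. Some values were small beside their SE, such as -0.02 ± 0.26 in female cerebellum and -0.08 ± 0.35 in female hypothalamus. AMHR2 was likewise highest in gonads (ovary 36.2 ± 6.67 CPM, testis 31.6 ± 6.97 CPM) but had its next level in adrenal (18.4 ± 4.15 CPM), above pituitary (4.00 ± 1.29 CPM) without overlap. In adrenal AMHR2 averaged 15.3 ± 4.51 CPM in BF and 20.8 ± 3.73 CPM in BM, and 16.4 ± 2.16 CPM in NF and 21.2 ± 2.74 CPM in NM, and neither difference passed (edgeR, adjusted p = 0.154 and 0.224).

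FST was highest in ovary (85.1 ± 26.4 CPM), then skin (29.5 ± 8.92 CPM) and thyroid (9.22 ± 2.75 CPM), and lowest in cerebellum (0.156 ± 0.136 CPM). INHBA was highest in ovary (38.0 ± 46.9 CPM), then heart (4.12 ± 2.44 CPM), and lowest in pituitary (0.201 ± 0.213 CPM). ACVR2A ran from 28.8 ± 2.13 CPM in adrenal to 82.4 ± 20.6 CPM in skin, with hypothalamus next below skin (51.2 ± 5.44 CPM). Within 1 SD of the means, its neighbours overlapped from hypothalamus to ovary and from thyroid to adrenal.

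**Figure D5:**
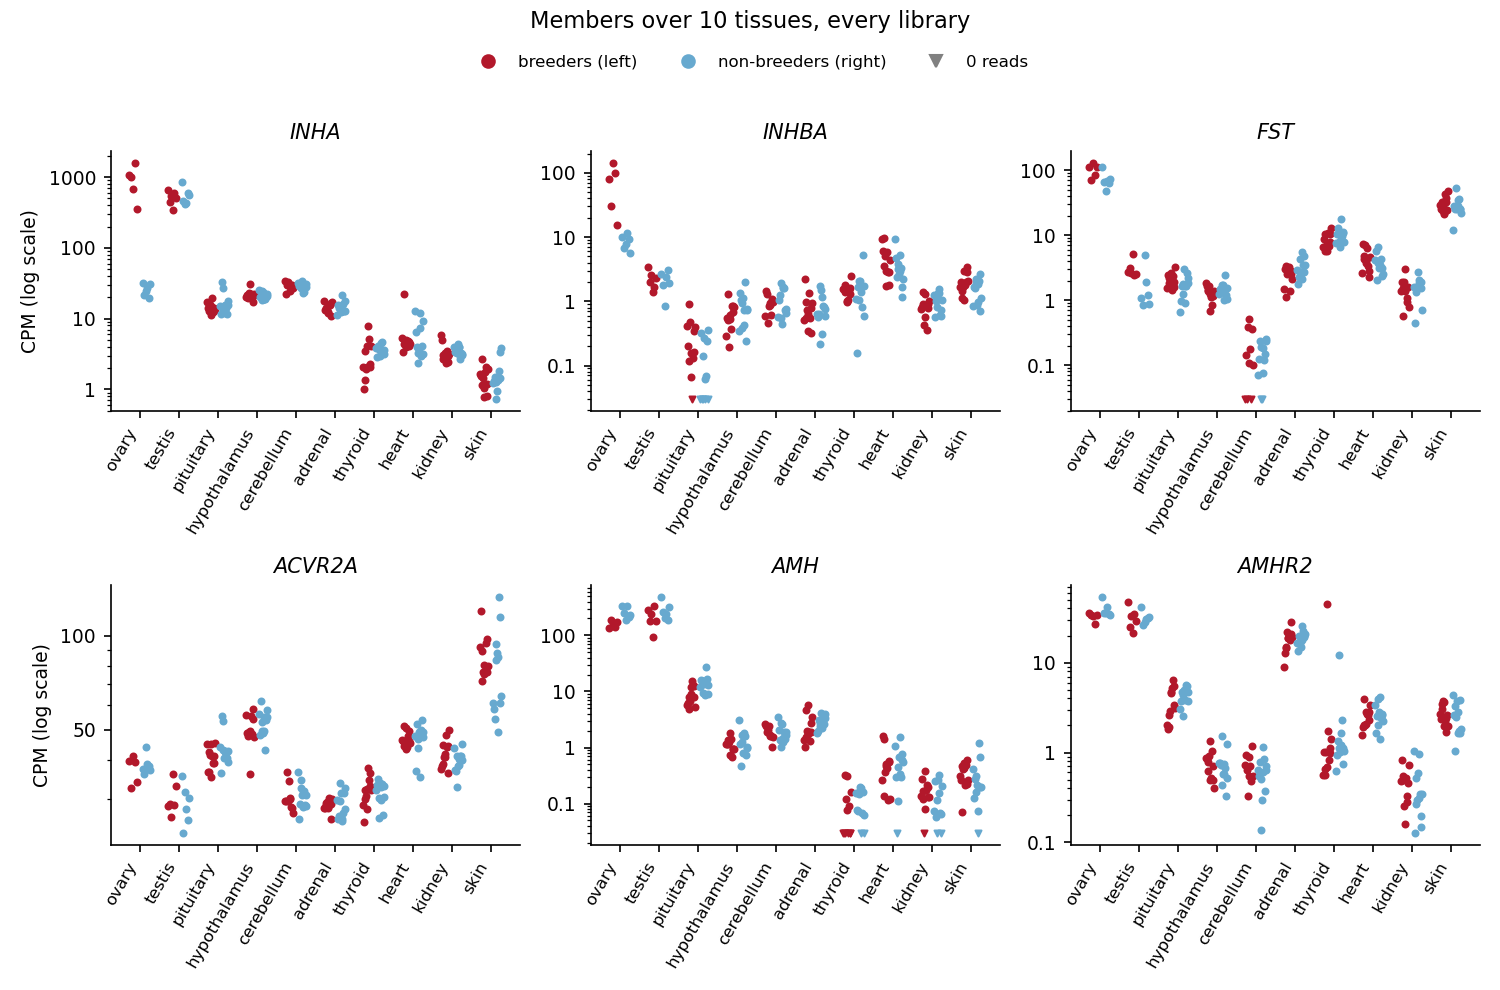
CPM on a log axis of the 6 members in every library of 10 tissues, with breeders of both sexes left of non-breeders and 0 reads as triangles. AMH is at 91.9 to 483.5 CPM in gonads and at most 27.6 CPM elsewhere, AMHR2 has a further level in adrenal (mean 18.4 CPM), and single thyroid libraries reach 44.4 and 12.0 CPM of AMHR2.

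Outside gonads and pituitary, no member was called for breeding status by edgeR or DESeq2 in 14 comparisons (68 tests, 5 with an unadjusted p below 0.05), nor for sex in the 16 comparisons outside the gonads, pituitary included (80 tests, 11 with an unadjusted p below 0.05). For status, edgeR called 0% of genes in 13 of the 14, the exception being female thyroid. DESeq2 called 9.29% of genes in female thyroid, 3.09% in male skin, 0.916% in female adrenal and at most 0.113% in the others. The share of genes with an unadjusted p below 0.05 by edgeR ran from 1.46% in male hypothalamus to 30.2% in female thyroid, with 18.6% in male skin. For sex, the share called by edgeR was 0.0416% and 0.0253% in heart (breeders and non-breeders in that order), 0.0376% and 0.03% in kidney, 0.044% and 0.0519% in cerebellum and 0.0434% in both for hypothalamus. It was 0.101% and 0.00729% in pituitary, 0.0158% and 0% in thyroid, 0.429% and 0.023% in adrenal and 0% in skin. The comparison of non-breeder thyroids holds both libraries that go against their labels, NF_3605 and NM_3295, kept as labelled. No fit for sex was run without them, so the lack of calls there is uncertain. DESeq2 called 6.61% of genes in breeder thyroid, 3.47% in breeder adrenal and at most 0.632% in the others, and the unadjusted share ran from 3.14% to 31.6%. Closest to a call for status was INHA in female thyroid, with 1.99 ± 0.839 CPM in BF and 3.54 ± 0.470 CPM in NF (log2 fold change -0.83 ± 0.25; adjusted p = 0.049 by edgeR and 0.0149 by DESeq2), in a tissue where edgeR called 1.57% of 12837 genes. Without the library labelled NF_3605 the INHA value was -0.81 ± 0.27 (edgeR, adjusted p = 0.0878). AMHR2 in thyroid rested on single libraries. It had 0.560 to 1.01 CPM in BF and 0.619 to 12.0 CPM in NF, where the high value was the library labelled NF_3605, and without it the log2 fold change of -1.92 ± 0.73 became -0.41 ± 0.28. In males BM_1147 had 44.4 CPM, and without it the log2 fold change of 2.75 ± 1.11 became -0.12 ± 0.32.

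The rest of the signalling system was described by lists. In ovary, none of 11 other ligands tested was called by edgeR (median log2 fold change 0.07, against -0.02 over all genes; 4 with an unadjusted p below 0.05; DESeq2 called 1), and none of 9 other receptors and co-receptors (median 0.01; 3 and 1). Nor were any of 7 binding proteins and inhibitors (median 0.36, all 7 positive; 1 and 0) or 5 SMAD signal transducers (median 0.01; 0 and 0). Among 8 transcription factors known to act on INHA, AMH or FSHB the median was -0.10 (0 called by edgeR, 3 with an unadjusted p below 0.05, 1 called by DESeq2). Over all genes in ovary, 15.9% had an unadjusted p below 0.05 by edgeR, and DESeq2 called 3.5%. Chosen after their values were seen, TGFBR1, a type I receptor of TGF-beta, had a log2 fold change of 0.91 ± 0.18 (adjusted p = 0.0254 by edgeR), BMP4, a bone morphogenetic protein, 0.95 ± 0.20 (0.0341), and NR5A2, a nuclear receptor of granulosa cells, 1.39 ± 0.32 (0.046). BMP15 and GDF9, the ligands made by oocytes, had -0.47 ± 0.18 and -0.37 ± 0.16 (adjusted p = 0.218 and 0.271).

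In testis, the receptor list had a median of 0.42 (all genes 0.02), with 9 of 10 positive, 0 called by edgeR, 2 with an unadjusted p below 0.05 and 1 called by DESeq2, namely ENG, endoglin, chosen after its values were seen (0.66 ± 0.16; adjusted p = 0.0681 by edgeR and 0.00982 by DESeq2). In female pituitary, none of 11 receptors was called by edgeR (median 0.10, all genes 0.00; 1 with an unadjusted p below 0.05; DESeq2 called 1). That gene, named after its values were seen, was TGFBR3, betaglycan, the inhibin co-receptor, which lay lower in every breeder than in any non-breeder (-0.74 ± 0.13; adjusted p = 0.109 by edgeR and 0.000155 by DESeq2), where 0.836% of genes showed this. Of the 8 transcription factors 0 were called by edgeR (median -0.55, 5 with an unadjusted p below 0.05), and DESeq2 called 1. This was NR0B1, a repressor of NR5A1 target genes, with a log2 fold change of -1.19 ± 0.16 (adjusted p = 0.0404 by edgeR and 2.07e-08 by DESeq2). Its groups did not overlap, with every breeder lower, as for 0.836% of genes. Over all genes in female pituitary DESeq2 called 0.467%. Neither TGFBR3 nor NR0B1 was examined without NF_2969 and NF_3605, the libraries that stood apart. In male pituitary TGFBR3 stood at 0.06 ± 0.17 and NR0B1 at -0.35 ± 0.19 (edgeR, adjusted p = 0.918 and 0.486), and no gene of the 5 lists was called there by edgeR or DESeq2.

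The genes whose pattern was most like each member were sought over the 36 group means of 15468 genes, by Pearson's r of log2(CPM + 0.5). For INHA these were MEX3A (r = 0.90), TSPYL5 (0.90) and SETDB1 (0.89), and for AMH they were ZNF473 (0.94), SLC25A31 (0.94) and CC2D2B (0.93). For AMHR2 they were TRIM73, TAC4 (both 0.94) and CABYR (0.93), for FST they were SDE2, RPLP2 and MMP14 (all 0.92), for INHBA they were NUP85 (0.86), DGCR14 (0.85) and RBM19 (0.84), and for ACVR2A they were CYBB, NLRP3 and CSF1 (all 0.89). Between members, the pattern of AMH was closest to that of INHA (r = 0.85) and AMHR2 (0.75), while the lowest r was that of ACVR2A with INHA (-0.46). These values are descriptions, since groups of a tissue share animals and most of their expression.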

How the data were processed

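The authors sequenced poly(A) libraries single-end. The kit keeps no strand, and genes that overlap on opposite strands are therefore uncertain. They aligned with STAR 2.4.1d, dropped multi-mapping reads and used HTSeq to total reads for each symbol. The deposited table holds these counts, not normalized. Depth bounds precision, and low counts carry counting error that replicates include. CPM were scaled by TMM over all libraries used. Separate fits per comparison used edgeR 4.0.16 with R 4.3.3 (filterByExpr, TMM, quasi-likelihood F-test with robust dispersions), with Benjamini-Hochberg adjustment over all genes tested and a call at an adjusted p below 0.01. DESeq2 1.42.0, limma 3.58.1 (voom, chosen after the data were seen, as were the thyroid fits and the FSHB, LHB and CGA fits without single libraries), other scalings, no filter, all groups in one fit and leaving out each animal were alternatives. Fits were tested on simulated data. Ratios used counts + 0.5. Members, gene lists and named genes (all members, 5 partner genes, up to 3 called genes per list, the 3 genes most like each member) were chosen with earlier results of these data known. Fold changes of list genes not called by edgeR (TGFBR1, BMP4, NR5A2, BMP15, GDF9, ENG, TGFBR3 and NR0B1) were given outside this rule. The ovary library of BF_1816 and 1 BM cerebellum library were left out, as the authors did. Replicates are separate animals, and litter and colony entered no test. Planned ratios with INHBB were not formed.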

Additional observations from a re-analysis of the deposited data

Results flagged for a closer look

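INHA and INHBA differed between gonads in their status effect, by 5.27 and 3.06 on the log2 scale (ovary minus testis), in a direct test of the difference. That test was not repeated without single animals. In ovary alone, the call of INHBA was lost in 10 of 11 fits that left out 1 female.

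Some libraries stood apart from the others of their group by the ratio of their gap to the range of the group. This was seen for 9 of 69 groups of values examined. The limits used mark about 1 in 20 groups of independent, normally distributed values. CPM were not log-transformed, the groups share libraries, and AMHR2 in thyroid was the only gene examined outside gonads and pituitary. The count is therefore not set against chance. In thyroid, AMHR2 had 44.4 CPM in BM_1147 (next highest 1.74 CPM) and 12.0 CPM in the library labelled NF_3605 (next 1.33 CPM). In testis, FST had 5.10 CPM in BM_3274 (next 3.13 CPM) and 4.98 CPM in NM_3295 (next 1.90 CPM), and FSHR had 16.4 CPM in BM_1147 (next 8.71 CPM). In ovary, AMHR2 had 27.1 CPM in BF_6382 (next lowest 33.2 CPM) and ACVR2A 44.1 CPM in NF_2969 (next 38.7 CPM). In pituitary, LHB, the beta subunit of luteinizing hormone, had 845.9 CPM in BF_1816 (next 375.8 CPM), where FSHB was lowest, and CGA, the alpha subunit shared by both gonadotropins, had 8412 CPM in BM_1147 (next 4051 CPM).

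The ovary library of BF_1816, left out of the tests, held 579.6 CPM of FST, 1252 of INHA, 197.3 of INHBA and 253.4 of CYP19A1, all above every non-breeder ovary.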

How the results depend on the processing

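In ovary the count of called genes was 507 by DESeq2, 233 with all groups in one fit and 39 with BF_1816 kept in, and 17 to 115 without 1 animal. Called members numbered 1 without a filter and 1 by limma-voom, and 1 to 2 without 1 animal, the one lost being INHBA (log2 fold change 3.12 without a filter, 2.73 by limma-voom, 2.74 to 3.39 without 1 animal). AMH in ovary passed by DESeq2 (-0.69). In testis DESeq2 called 378 genes and the fit of all groups 9. In female pituitary the counts were 73 by DESeq2, 22 with all groups, 1 by limma-voom, 1 without NF_2969 and NF_3605, and 0 to 2 without 1 animal, and in male pituitary 17 by DESeq2 and 0 to 1. Signs turned for some values, none of them called: AMHR2 in testis (-0.0018 with all groups, -0.12 to 0.13 without 1 animal) and INHA in female pituitary (0.19 without NF_2969 and NF_3605). Without 1 animal they also turned for ACVR2A in ovary (-0.0798 to 0.0137), INHA (-0.16 to 0.10) and INHBA (-0.0694 to 0.2156) in testis, ACVR2A (-0.0182 to 0.0222), AMHR2 (-0.1268 to 0.0781) and INHA (-0.1496 to 0.0339) in male pituitary, and AMHR2 in male thyroid (-0.12 to 2.96). The causes were not tested. Direction, side of the threshold (for ratios, an unadjusted p of 0.05) and, for counts, size were kept in 212 of 229 values under other alternatives and in 411 of 463 without 1 animal. A value that was not called and stayed so counts as kept, so these shares say little of the calls. In ovary without 1 animal, INHA was kept in 11 of 11 fits, INHBA in 1 of 11 and the count of called genes in 4 of 11. No paired analysis was possible because the labels give neither litter nor mate, and animal numbers recur only across tissues.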
